A study of Mus musculus with 16 samples.

Results

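The syndecans (Sdc1, Sdc2, Sdc3 and Sdc4) and the glypicans (Gpc1, Gpc2, Gpc3, Gpc4, Gpc5 and Gpc6) were described across 4 cell populations sorted from the mouse femur. The members were the rows of the deposited expression table whose gene name equals one of these symbols, 10 of 22559 genes. All 10 passed the filter on low values (10 or more normalized counts in 4 or more libraries), which kept 13797 genes, though Gpc2 and Gpc5 passed it with few reads.

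Cells came from mice at postnatal day 6, of the strain labelled C57/B6, with the genotype CTSK-cre+ mTMG in every group. In the mTmG reporter, Cre removes a red membrane marker and turns on green membrane GFP (mGFP), which daughter cells inherit, and here the promoter of Ctsk, the cathepsin K gene, drives Cre. The periosteal groups are stem cells (PSC), progenitors of type 1 (PP1) and progenitors of type 2 (PP2). The remaining group, labelled endosteal mesenchymal stem cells (MSC), carried the same alleles but was sorted as mGFP-negative. Each group had 4 RNA-seq libraries, 16 in all, none of them pooled. The labels place all samples in 1 litter and on the same day, but leave it unsaid whether each library is its own animal. P-values therefore refer to the spread between these libraries, which may be technical.

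Syndecans and glypicans are the main families of cell-surface heparan sulfate proteoglycans. Syndecans cross the membrane and carry heparan sulfate, and in some members chondroitin sulfate, on an outer domain that proteases can shed, while a short cytoplasmic tail binds PDZ-domain proteins such as syntenin. Glypicans are held to the outer leaflet by a glycosylphosphatidylinositol anchor. Their sulfated chains bind FGFs, Wnts, BMPs and Hedgehog proteins, and loss of GPC3 in people causes the overgrowth syndrome of Simpson, Golabi and Behmel.

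The shared feature of the syndecans can be read in their coding sequences. The last 60 coding bases before the stop codon are given 5′ to 3′ from GENCODE M21 (GRCm38), with the last 12 bases, which encode the end of the tail that binds PDZ domains, in capitals.
Sdc1: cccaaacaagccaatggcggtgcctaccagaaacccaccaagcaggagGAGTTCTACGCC
Sdc2: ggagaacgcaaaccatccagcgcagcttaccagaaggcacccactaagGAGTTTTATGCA
Sdc3: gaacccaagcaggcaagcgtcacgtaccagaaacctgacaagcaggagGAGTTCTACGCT
Sdc4: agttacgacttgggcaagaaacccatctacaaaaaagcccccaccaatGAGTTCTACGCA
Of these 12 capital bases, Sdc1, Sdc3 and Sdc4 shared 11 with each other, and Sdc2 shared 9 with Sdc1, 9 with Sdc3 and 10 with Sdc4. Over whole coding sequences, identity of aligned bases ran from 65.3% (Sdc2 and Sdc4) to 73.7% (Sdc3 and Sdc4) among syndecans. Among glypicans it was highest for Gpc4 and Gpc6, at 68.5%. The longest run of identical bases between the transcripts of any 2 members of a family was 29 bases, between Sdc3 and Sdc4.

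Recovered reads ran from 22.31 to 48.36 M per library, and 11653 to 15696 genes had a read. The MSC libraries had the most genes with a read. Values are normalized counts, which are reads per gene over a size factor that the authors set for each library. Levels of different genes are compared only as normalized counts per kb of exon. Differences were tested with limma on log2(normalized count + 1), with Benjamini-Hochberg adjustment over all 13797 genes within each comparison, and a gene was called at an adjusted p under 0.05. All comparisons come from 1 fit over the 16 libraries, and those with a group in common share its libraries. PP2 replicates 1 and 3 had stood apart from the other PP2 libraries in an earlier look at all genes. Without both, the number of members called was the same in 4 comparisons, 9 in place of 8 for PSC against PP2, and 8 in place of 9 for PP2 against MSC.

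The members fell into 2 opposite patterns. Sdc1, Sdc2, Gpc3 and Gpc4 were higher in both periosteal progenitor groups than in PSC and MSC. Sdc3, Sdc4 and Gpc1 were lower in both progenitor groups than in PSC and MSC, and Gpc6 was lower in both than in MSC. Between PSC and PP1, 9 of 10 members were called, where 31.2% of all tested genes were called. Of these, 5 were higher in PSC (16.1% of all genes) and 4 higher in PP1 (15.1%). Between PSC and PP2, 8 of 10 were called against 32.8% of all genes, 4 higher in PSC (17.6%) and 4 higher in PP2 (15.2%). PP1 and MSC differed for 9 of 10 members against 21.4% of all genes, 4 higher in PP1 (8.88%) and 5 higher in MSC (12.6%). PP2 and MSC differed for 9 of 10 against 24% of all genes, 4 higher in PP2 (9.28%) and 5 higher in MSC (14.7%). PSC and MSC differed for 3 of 10 against 26.3% of all genes, 0 higher in PSC (12.1%) and 3 higher in MSC (14.2%). PP1 and PP2 differed for 0 of 10 by limma against 0.834% of all genes (0.478% higher in PP1 and 0.355% higher in PP2). Gpc5 passed the filter only through PSC and MSC and had no read in any progenitor library, so it had to differ from both progenitor groups and its calls there support nothing. Without it, the calls were 8 of 9 for PSC and PP1 (4 higher in each), 7 of 9 for PSC and PP2 (3 higher in PSC and 4 in PP2), and 8 of 9 for each progenitor group and MSC (4 higher in each). The median size of the log2 difference over these 9 members was 0.80 for PSC and PP1, beside 0.61 over all tested genes. It was 1.11 beside 0.63 for PSC and PP2, 1.06 beside 0.50 for PP1 and MSC, and 0.95 beside 0.52 for PP2 and MSC. For PSC and MSC it was 0.15 over the 9 members and 0.54 over all genes, and for PP1 and PP2 it was 0.23 and 0.30.

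**Figure D1:**
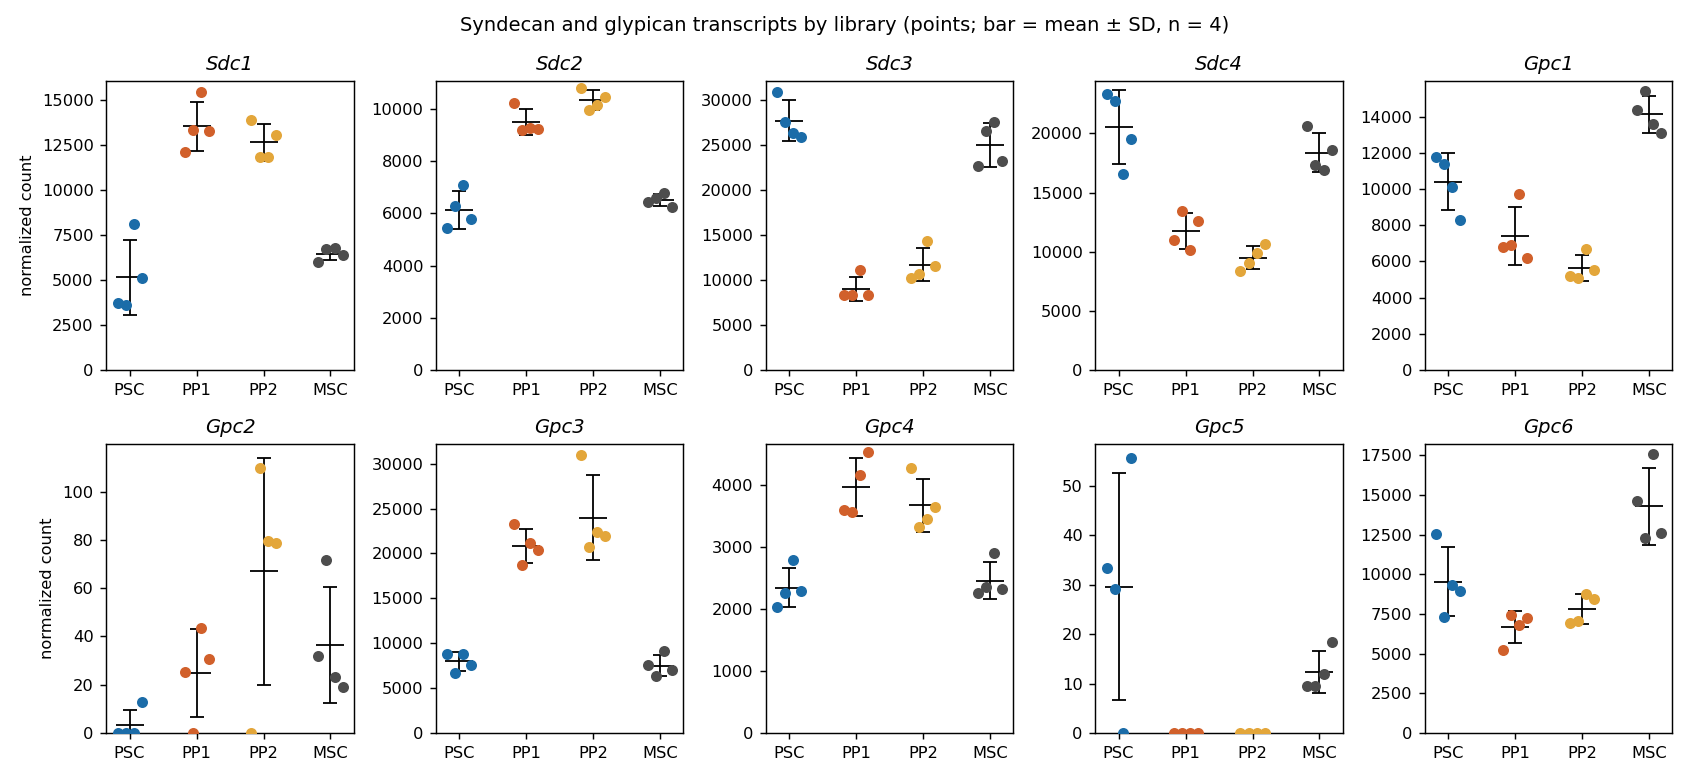
Normalized counts (vertical axis, from 0) of the 10 members in each library (points) of PSC, PP1, PP2 and MSC; the bar is the group mean ± SD of 4 libraries. Sdc1, Sdc2, Gpc3 and Gpc4 were higher in all PP1 and PP2 libraries than in all PSC and MSC libraries, Sdc3 and Sdc4 were lower in all of them, and Gpc2 and Gpc5 were at most at 110 normalized counts.

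**Figure D2:**
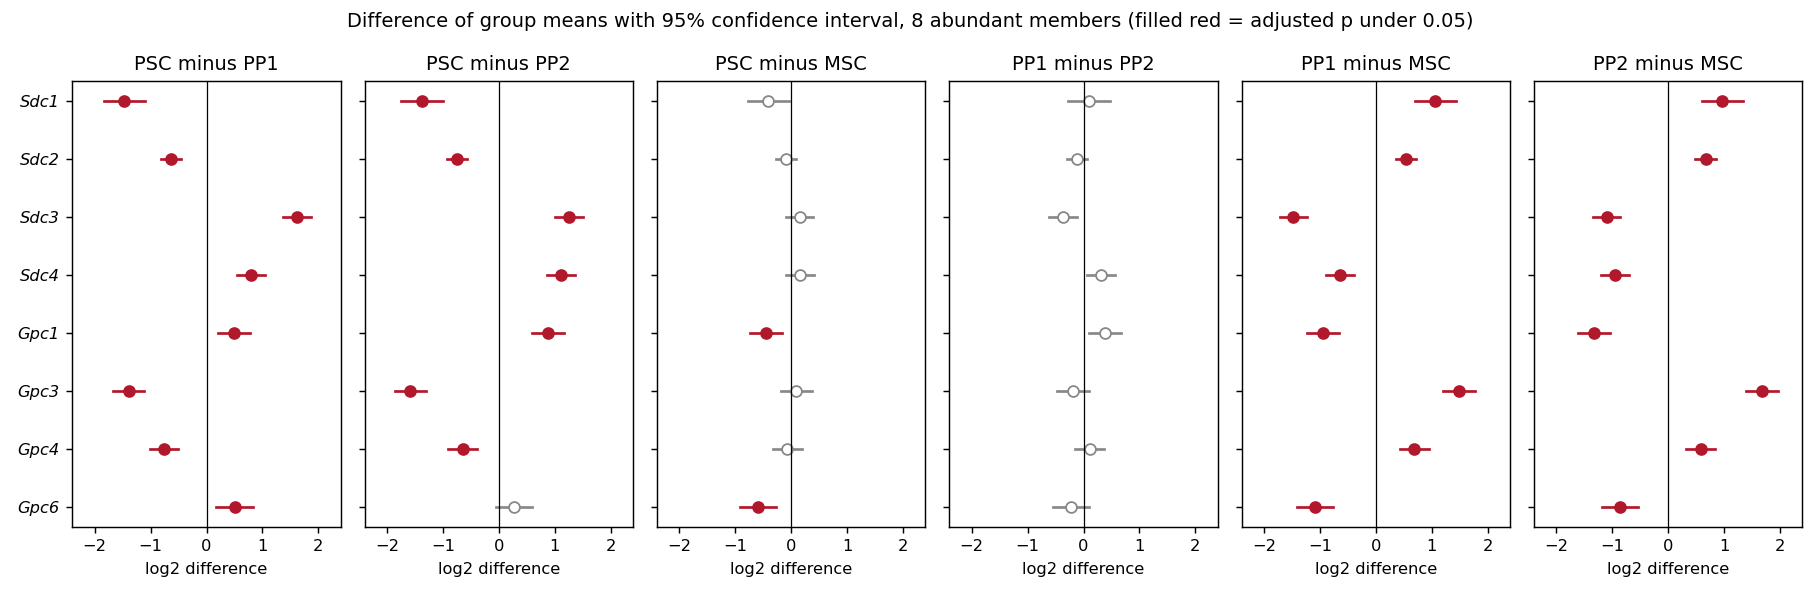
Log2 differences of the group means (horizontal axis) with 95% confidence intervals for the 8 abundant members in the 6 pairs of groups, from the limma fit; filled red points have an adjusted p under 0.05. Sdc1, Sdc2, Gpc3 and Gpc4 lie on the progenitor side in the 4 comparisons of a progenitor group with PSC or MSC, and none of the 8 members is called between PP1 and PP2.

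Sdc1 encodes syndecan-1, best known from epithelia and plasma cells, which is shed from the cell surface. In PSC it had 3718, 3633, 8142 and 5146 normalized counts in replicates 1 to 4, and in MSC 6031, 6722, 6806 and 6379. In PP1 it had 12161, 13349, 15460 and 13278, and in PP2 13921, 11832, 11852 and 13093. Every progenitor library lay above every PSC and MSC library, and PSC replicate 3 stood above the other PSC libraries. Sdc1 was 2.77-fold higher in PP1 than in PSC (log2 difference of PSC to PP1 -1.47 ± 0.18 SE, limma adjusted p = 2.58e-06) and 2.59-fold higher in PP2 than in PSC (adjusted p = 5.70e-06). Against MSC it was 2.09-fold higher in PP1 (adjusted p = 0.00025) and 1.95-fold higher in PP2 (adjusted p = 0.000537). PSC and MSC did not pass the test for Sdc1 (log2 difference -0.41 ± 0.18, limma adjusted p = 0.0972), but did without PSC replicate 3 (-0.66, adjusted p = 0.000648).

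Because Sdc1 is also a marker of plasma cells and epithelia, markers of both were read beside it. Of 6 plasma and B cell markers 5 were in the table, and their summed normalized count was 0 to 71.4 in PSC, 13.7 to 22.1 in MSC, 0 to 22.4 in PP1 and 0 to 118 in PP2, with Ms4a1 at 0 in all libraries. The 6 epithelial markers summed to 85.9 to 796 in PSC, 1731 to 3306 in MSC, 0 to 310 in PP1 and 0 to 54.3 in PP2, and Cdh1 was at 0 in every PP1 and PP2 library. The epithelial sum was lowest in the groups with the highest Sdc1, and the plasma and B cell sum was at most 118 in any library.

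Sdc2 encodes syndecan-2, the syndecan typical of mesenchymal cells and fibroblasts. It had 5431, 6296, 7103 and 5771 normalized counts in PSC and 6441, 6589, 6778 and 6236 in MSC. It had 10244, 9211, 9286 and 9225 in PP1 and 10802, 9944, 10152 and 10450 in PP2. The progenitor libraries did not overlap with those of PSC or MSC, and the spread within groups was small beside the gap. Sdc2 was 1.55-fold higher in PP1 than in PSC (log2 difference of PSC to PP1 -0.63 ± 0.09 SE, limma adjusted p = 1.14e-05) and 1.69-fold higher in PP2 than in PSC (adjusted p = 1.21e-06). The difference from MSC was 1.46-fold in PP1 (adjusted p = 0.000149) and 1.59-fold in PP2 (adjusted p = 1.28e-05).

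Sdc3 encodes syndecan-3, known from nerve and from the growth plate and limb cartilage of the chick. It ran the other way, with 30886, 27511, 26283 and 25869 normalized counts in PSC and 22647, 26515, 27533 and 23141 in MSC. In PP1 it had 8385, 8280, 11053 and 8378, and in PP2 10249, 10650, 14301 and 11551. All progenitor libraries lay far below all PSC and MSC libraries, and replicate 3 was the highest in both progenitor groups. Sdc3 in PSC exceeded PP1 3.08-fold (log2 difference 1.62 ± 0.12 SE, limma adjusted p = 3.84e-09) and 2.38-fold higher in PSC than in PP2 (1.25 ± 0.12, adjusted p = 1.11e-07). MSC exceeded PP1 2.78-fold (adjusted p = 4.80e-08) and PP2 2.15-fold (adjusted p = 1.56e-06). The antisense gene Gm26716 covers 1920 exon bases of Sdc3, and without a stated strand setting the reads of both cannot be told apart.

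Sdc4 encodes syndecan-4, a focal adhesion component that binds protein kinase C alpha. It had 23329, 22709, 16603 and 19538 normalized counts in PSC, 20633, 17359, 16879 and 18623 in MSC, 10958, 13443, 10120 and 12612 in PP1, and 8395, 9056, 9907 and 10654 in PP2. PSC and MSC overlapped, and both lay above every progenitor library. The level in PSC was 1.74-fold that in PP1 (log2 difference 0.80 ± 0.12 SE, limma adjusted p = 3.56e-05) and 2.15-fold that in PP2 (1.11 ± 0.12, adjusted p = 6.57e-07). MSC was 1.56-fold above PP1 (adjusted p = 0.000658) and 1.94-fold above PP2 (adjusted p = 9.65e-06).

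Gpc3 encodes glypican-3, which binds Hedgehog proteins and restrains growth. It had 8791, 6643, 8807 and 7616 normalized counts in PSC and 7558, 6326, 9110 and 6966 in MSC. In PP1 it had 23228, 18705, 21152 and 20351, and in PP2 30987, 20661, 22354 and 21970. The lowest progenitor library was above the highest PSC or MSC library, and PP2 replicate 1 was the highest of all. Gpc3 was 2.63-fold higher in PP1 than in PSC (log2 difference of PSC to PP1 -1.39 ± 0.13 SE, limma adjusted p = 1.56e-07) and 2.99-fold higher in PP2 than in PSC (-1.58 ± 0.13, adjusted p = 2.86e-08). The same gene was 2.80-fold higher in PP1 than in MSC (adjusted p = 2.35e-07) and 3.19-fold higher in PP2 than in MSC (adjusted p = 5.18e-08).

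Gpc4, which encodes glypican-4, a partner in Wnt signalling, lies next to Gpc3 on the X chromosome on the same strand, 107 kb away with 0 annotated genes between. It had 2032, 2262, 2785 and 2287 normalized counts in PSC, 2251, 2350, 2902 and 2315 in MSC, 3591, 3563, 4148 and 4534 in PP1, and 4272, 3320, 3440 and 3638 in PP2. As for Gpc3, no progenitor library overlapped with PSC or MSC, but the gap was smaller. Gpc4 was 1.69-fold higher in PP1 than in PSC (log2 difference of PSC to PP1 -0.76 ± 0.12 SE, limma adjusted p = 7.82e-05) and 1.57-fold higher in PP2 than in PSC (adjusted p = 0.000369). Against MSC the folds were 1.61 in PP1 (adjusted p = 0.000446) and 1.49 in PP2 (adjusted p = 0.00183).

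Gpc1 encodes glypican-1, which modulates FGF signalling. It had 11764, 11392, 10125 and 8276 normalized counts in PSC, 14373, 15432, 13607 and 13088 in MSC, 6787, 6901, 9738 and 6188 in PP1, and 5196, 5108, 6706 and 5535 in PP2. MSC stood above all other libraries, while PSC and PP1 overlapped through PSC replicate 4 and PP1 replicate 3. PSC exceeded PP1 1.41-fold (limma adjusted p = 0.00834) and PP2 1.84-fold (adjusted p = 4.85e-05). MSC exceeded PP1 1.93-fold (adjusted p = 5.04e-05) and PP2 2.52-fold (adjusted p = 9.27e-07). PSC was 1.37-fold lower than MSC (log2 difference -0.45 ± 0.14 SE, limma adjusted p = 0.0182), a call that was lost without PSC replicate 4 (adjusted p = 0.0802) or MSC replicate 2 (adjusted p = 0.0569). Of the exon bases of Gpc1, 977 lie within Ankmy1 on the opposite strand.

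Gpc6 encodes glypican-6, whose loss in people shortens the limbs (omodysplasia). It had 12520, 7318, 9318 and 8966 normalized counts in PSC, 14600, 12289, 17611 and 12600 in MSC, 5231, 7444, 6798 and 7217 in PP1, and 6923, 7075, 8778 and 8442 in PP2. MSC was highest but met PSC replicate 1, and PSC overlapped with both progenitor groups. MSC exceeded PSC 1.51-fold (log2 difference of PSC to MSC -0.59 ± 0.15 SE, limma adjusted p = 0.00756), PP1 2.14-fold (adjusted p = 4.23e-05) and PP2 1.82-fold (adjusted p = 0.00043). PSC was 1.41-fold above PP1 (adjusted p = 0.0179), which was lost without PSC replicate 1 (limma adjusted p = 0.0782) or PP1 replicate 1 (adjusted p = 0.0722), and with only the 8 libraries compared (adjusted p = 0.0508). PSC and PP2 did not pass the test (log2 difference 0.27 ± 0.15, limma adjusted p = 0.200).

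Gpc5 and Gpc2, which encode glypican-5 and the mainly neural glypican-2, were near the limit of detection. Gpc5 had 33.5, 29.2, 0 and 55.7 normalized counts in PSC, 9.44, 9.58, 11.99 and 18.4 in MSC, and 0 reads in all PP1 and PP2 libraries. In PSC it was at least 8.51-fold higher than in PP1 (limma adjusted p = 0.00828) and at least 9.86-fold higher than in PP2 (adjusted p = 0.00800), counting 3 reads per library as the floor. MSC was at least 3.55-fold higher than PP1 (adjusted p = 0.0193) and at least 4.11-fold higher than PP2 (adjusted p = 0.0178) on the same floor. These bounds cover counting error only, and since the filter fixed the direction for Gpc5, its tests are given as a description. The call against PP1 was lost with a pseudocount of 8 (adjusted p = 0.0803) and without MSC replicate 4 (adjusted p = 0.0528). The call against PP2 was lost with that pseudocount (adjusted p = 0.0760) and without PP2 replicates 1 and 3 (limma adjusted p = 0.0732). Gpc5 and Gpc6 are also neighbours, 400 kb apart on chromosome 14.

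Gpc2 had 0, 0, 0 and 12.8 normalized counts in PSC, 31.8, 71.8, 23.1 and 19.1 in MSC, 25.4, 0, 43.4 and 30.8 in PP1, and 0, 110, 79.5 and 78.6 in PP2. PSC was lowest, and PP1 and PP2 each had a library with no read. It was lower in PSC than in MSC at the edge of the threshold (limma adjusted p = 0.0494), and this call was lost in 19 of 27 alternatives, with an adjusted p up to 0.163. PSC against PP2 missed the threshold (adjusted p = 0.0506) and PSC against PP1 did too (limma adjusted p = 0.163), though the former passed in 6 of 27 alternatives and the latter without PP1 replicate 2 (adjusted p = 0.0384). Of the 4274 exon bases of Gpc2, 4227 lie inside the same-strand gene Gm43720, so its counts are uncertain.

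PSC and MSC were also compared by intervals of the log2 difference, PSC minus MSC. For the 5 abundant members with neither a call nor a change in call, the 95% interval ran from -0.27 to 0.09 for Sdc2, -0.10 to 0.40 for Sdc3, -0.10 to 0.40 for Sdc4, -0.19 to 0.37 for Gpc3 and -0.33 to 0.19 for Gpc4. These 5 were picked for the lack of a call, so their intervals bound each difference but do not measure similarity of the families. The other abundant members had intervals below 0, from -0.78 to -0.04 for Sdc1, -0.74 to -0.17 for Gpc1 and -0.92 to -0.27 for Gpc6. No member was called higher in PSC than in MSC by limma (0 also at an unadjusted p under 0.05), edgeR or DESeq2. By limma, 12.1% of all tested genes were. The libraries of PSC and MSC did not overlap for 2 of 10 members (Gpc1 and Gpc2), against 38.7% of all tested genes. Between PSC and PP1, 6 of 10 members did not overlap (28.9% of all genes), and between PSC and PP2, 7 of 10 (28.5%). The progenitor groups did not overlap with MSC for 9 of 10 members each (30.1% of all genes for PP1 and 30.5% for PP2), or 8 of 9 without Gpc5.

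No member was called between PP1 and PP2. At an unadjusted p under 0.05, 3 members passed in limma (Sdc3, Sdc4 and Gpc1). They ranked 446, 949 and 715 by adjusted p among the 13797 tested genes, so many other genes passed that cut too. After adjustment 0 members passed by limma, edgeR or DESeq2, where limma called 0.834% of all genes. Among the members the smallest adjusted p was that of Sdc3 (log2 difference of PP1 to PP2 -0.37 ± 0.12 SE, limma adjusted p = 0.164). Sdc4 was at 0.31 ± 0.12 (adjusted p = 0.271) and Gpc1 at 0.38 ± 0.14 (limma adjusted p = 0.224), both with the higher mean in PP1. The libraries of PP1 and PP2 overlapped for all 10 members, where 4.74% of all genes did not overlap.

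Marker genes of other cell types moved with the same split of the groups. The 6 fibroblast markers (Dpt, Clec3b, Pi16, Mfap5, Cd34 and Cd248) summed to 1027 to 1902 normalized counts in PSC and 1494 to 1781 in MSC, against 38443 to 63441 in PP1 and 40277 to 71014 in PP2. The 6 osteoblast markers summed to 33298 to 38374 in PSC and 39256 to 54431 in MSC, against 6159 to 12411 in PP1 and 8316 to 13878 in PP2. The 6 chondrocyte markers, with Col2a1 by far the most abundant, summed to 2.795 to 4.799 M normalized counts in PSC and 5.63 to 8.46 M in MSC, against 1.21 to 1.52 M in PP1 and 1.601 to 2.11 M in PP2. Single markers did not all follow the sums. Matn3 averaged 203106 in PSC and 85119 in MSC, and Hapln1 308226 and 98262, opposite to the chondrocyte sum of these groups. Bglap averaged 1454 in PP1, beside 1273 in PSC, 1072 in MSC and 188 in PP2, unlike the osteoblast sum. All members of these 3 lists had reads in every group. In bulk samples, fewer cells of a type and less RNA per cell cannot be told apart, and the part of these markers in the members' differences was not tested. Osteoclast markers summed to 1731 to 8135 in PP1 against 386 to 1079 in PP2, 223 to 424 in PSC and 212 to 270 in MSC, and Calcr was at 0 in all 4 groups. Schwann cell markers summed to 15642 to 22478 in MSC, 6750 to 8480 in PSC, 2215 to 4915 in PP1 and 1832 to 2970 in PP2, with Foxd3 at 0 in PP1 and PP2. Skeletal muscle markers summed to 2546 to 5290 in PP2, 728 to 2097 in PP1, 362 to 627 in PSC and 192 to 286 in MSC, with Pax7 at 0 in all groups. Macrophage markers summed to 520 to 798 in PP1, above every library of PSC (39.1 to 177), PP2 (2.65 to 196) and MSC (68.5 to 141), and endothelial markers summed to at most 1174 in any library.

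Per kb of exon, Sdc4 led in PSC and MSC, and Gpc3 led in PP1 and PP2. In PSC, Sdc4 led with 8066 ± 1220 normalized counts per kb (SD, n = 4), followed by Sdc3 with 4615 ± 380 and Gpc3 with 2961 ± 388, and none of these neighbours overlapped. In MSC, Sdc4 also led (7214 ± 658 per kb), before Sdc3 (4168 ± 406) and Gpc3 (2784 ± 443), the last not apart from Gpc1 (2738 ± 198). In PP1, Gpc3 led with 7754 ± 699 per kb, before Sdc4 (4626 ± 595) and Sdc1 (3561 ± 362), which overlapped with each other. In PP2, Gpc3 led with 8919 ± 1754 per kb, before Sdc4 (3731 ± 387), Sdc1 (3327 ± 268) and Sdc2 (2931 ± 106), of which Sdc4 and Sdc1 overlapped. The remaining order was Gpc1, Sdc2, Gpc6, Sdc1 and Gpc4 in PSC, with each overlapping the next. In MSC it was Gpc6, Sdc2, Sdc1 and Gpc4, of which only Gpc4 stood apart. In PP1 it was Sdc2, Sdc3, Gpc4, Gpc1 and Gpc6, where Sdc3, Gpc4 and Gpc1 overlapped in turn, and in PP2 Sdc3, Gpc4, Gpc6 and Gpc1, where the last 3 overlapped in turn. Gpc2 and Gpc5 were last in all groups, at or below 15.7 per kb on average. Among the 13724 tested genes with a gene model, the 8 abundant members lay between the 89.3 and 98.7 percentile of the level per kb in every group.

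The composition of each family differed between the progenitors and the other groups. Summed per kb, the syndecans reached 15779 ± 911 in PSC, 14930 ± 278 in MSC, 12385 ± 415 in PP1 and 11941 ± 561 in PP2 (SD, n = 4, no test). The glypicans reached 7348 ± 788 in PSC, 8681 ± 854 in MSC, 11727 ± 701 in PP1 and 12626 ± 1804 in PP2. Sdc4 made up 50.9% ± 5.36 of the syndecan sum in PSC, 48.3% ± 3.93 in MSC, 37.3% ± 4.22 in PP1 and 31.2% ± 2.23 in PP2. Sdc1 made up 8.72% ± 3.95 in PSC and 11.4% ± 0.737 in MSC, against 28.7% ± 2.50 in PP1 and 27.9% ± 2.41 in PP2. Gpc3 made up 40.3% ± 2.53 of the glypican sum in PSC and 32.0% ± 2.30 in MSC, against 66.1% ± 3.49 in PP1 and 70.3% ± 3.69 in PP2. Gpc1 and Gpc6 held 27.5% ± 4.02 and 20.0% ± 2.80 in PSC, and 8.78% ± 1.63 and 9.79% ± 1.88 in PP2. The mean share of Gpc4 ran from 10.7% in MSC to 12.7% in PP1.

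**Figure D3:**
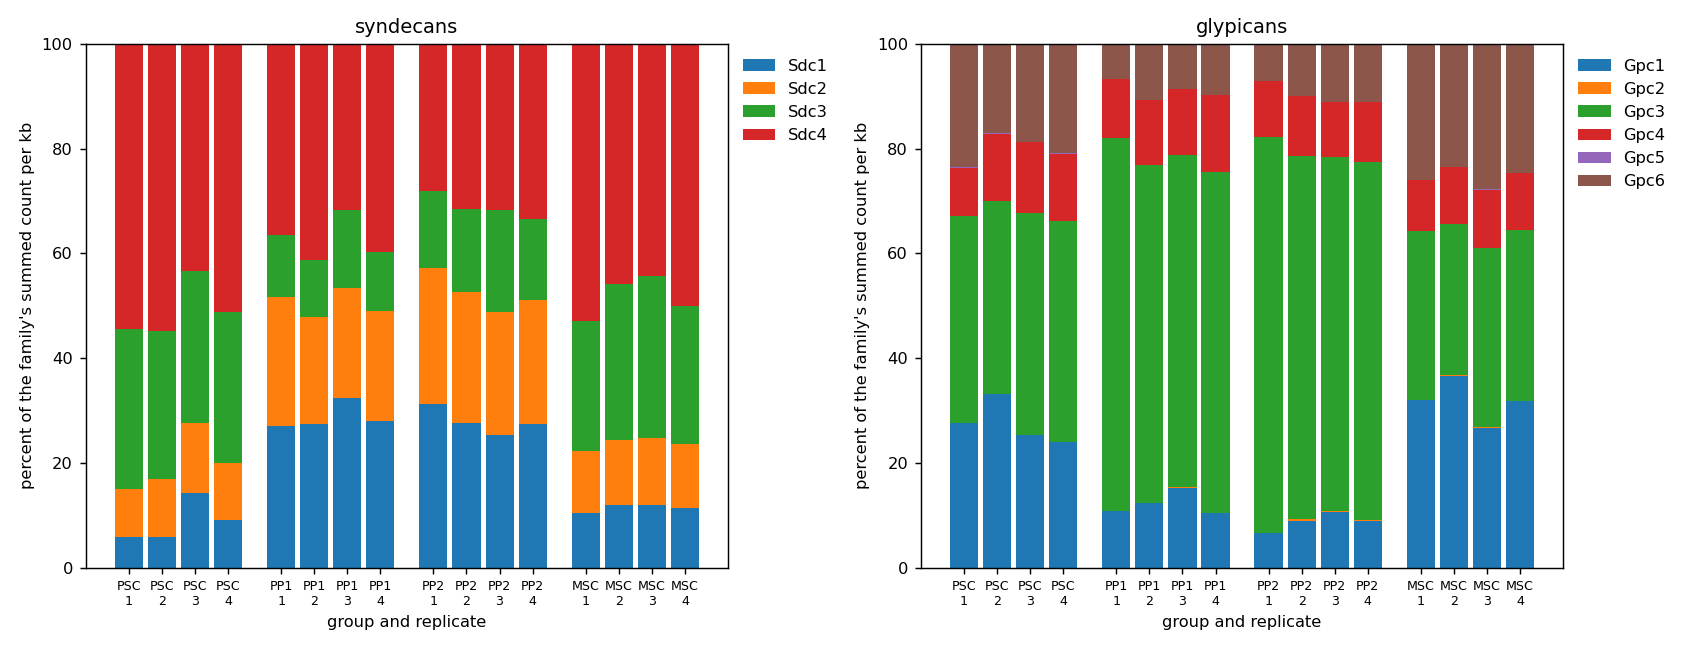
Percent of the summed normalized count per kb held by each syndecan (left) and each glypican (right), stacked to 100% for each of the 16 libraries. Sdc4 and Sdc3 fill most of the syndecan bars in PSC and MSC, and Gpc3 fills 63.5% to 75.7% of the glypican bars in PP1 and PP2.

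Ratios of 2 members within a library hardly depend on the size factors where both are abundant, and 5 ratios were compared over the 6 pairs of groups with exact two-sided permutation tests of 4 against 4 libraries, 30 tests in all. The smallest p this design allows is 0.0286, and 20 tests reached it (adjusted p = 0.0429 over the 30). Of these, 2 compare Gpc6 to Gpc5 where Gpc5 had no read, so their size is set by the pseudocount and the scaling. The other 4 ratios gave 18 of 24 (adjusted p = 0.0381 over the 24 alone). Part of these outcomes was fixed by the single members. Where each member separated the groups fully and in opposite directions, their ratio had to separate them too. This holds for Sdc3 to Sdc1 and Sdc2 to Sdc4 between each progenitor group and PSC or MSC. It also holds for Gpc6 to Gpc4 between each progenitor group and MSC. Such calls add nothing to the single members, and they lower the adjusted p of the other tests. The ratio of Sdc3 to Sdc1 was 6.03 ± 2.34 in PSC (SD, n = 4), 3.84 ± 0.187 in MSC, 0.664 ± 0.0456 in PP1 and 0.931 ± 0.198 in PP2. On the mean log2 scale PSC exceeded PP1 8.53-fold, and the ratio was 1.38-fold higher in PP2 than in PP1 (exact permutation p = 0.0286 each). The ratio of Sdc2 to Sdc4 was 0.308 ± 0.0839 in PSC, 0.357 ± 0.0408 in MSC, 0.817 ± 0.127 in PP1 and 1.10 ± 0.135 in PP2. It was 1.35-fold higher in PP2 than in PP1, again with no overlap (exact permutation p = 0.0286). For these 2 ratios PP1 and PP2 did not overlap, although the libraries of PP1 and PP2 overlapped for each single member. The other ratios overlapped between PP1 and PP2. The adjusted permutation p of 0.0429 rests on the whole pool of 30 tests, part of it fixed by the single members. The split of PP1 and PP2 by these ratios is therefore given as a description. With 1 library fewer the smallest possible p is 0.0571 for pairs with the group of that library. For the other pairs it stays at 0.0286, but after adjustment over the 30 tests no ratio was then called.

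The neighbours Gpc3 and Gpc4 were both higher in the progenitors, but unequally. Their ratio was 3.44 ± 0.613 in PSC, 3.05 ± 0.278 in MSC, 5.33 ± 0.830 in PP1 and 6.50 ± 0.534 in PP2 (SD, n = 4). Progenitor and other libraries did not overlap in it (exact permutation p = 0.0286 in each of the 4 comparisons, adjusted p = 0.0429). The ratio of Gpc6 to Gpc4, the 2 most alike glypicans by coding sequence, was 4.17 ± 1.36 in PSC, 5.81 ± 0.576 in MSC, 1.69 ± 0.274 in PP1 and 2.16 ± 0.396 in PP2. None of the 5 ratios passed between PSC and MSC, where exact permutation p-values ran from 0.114 for Gpc6 to Gpc4 up to 0.571 for Gpc6 to Gpc5. With Gpc5 at 0 in PP1 and PP2, its ratio there depends on the pseudocount and is not given.

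**Figure D4:**
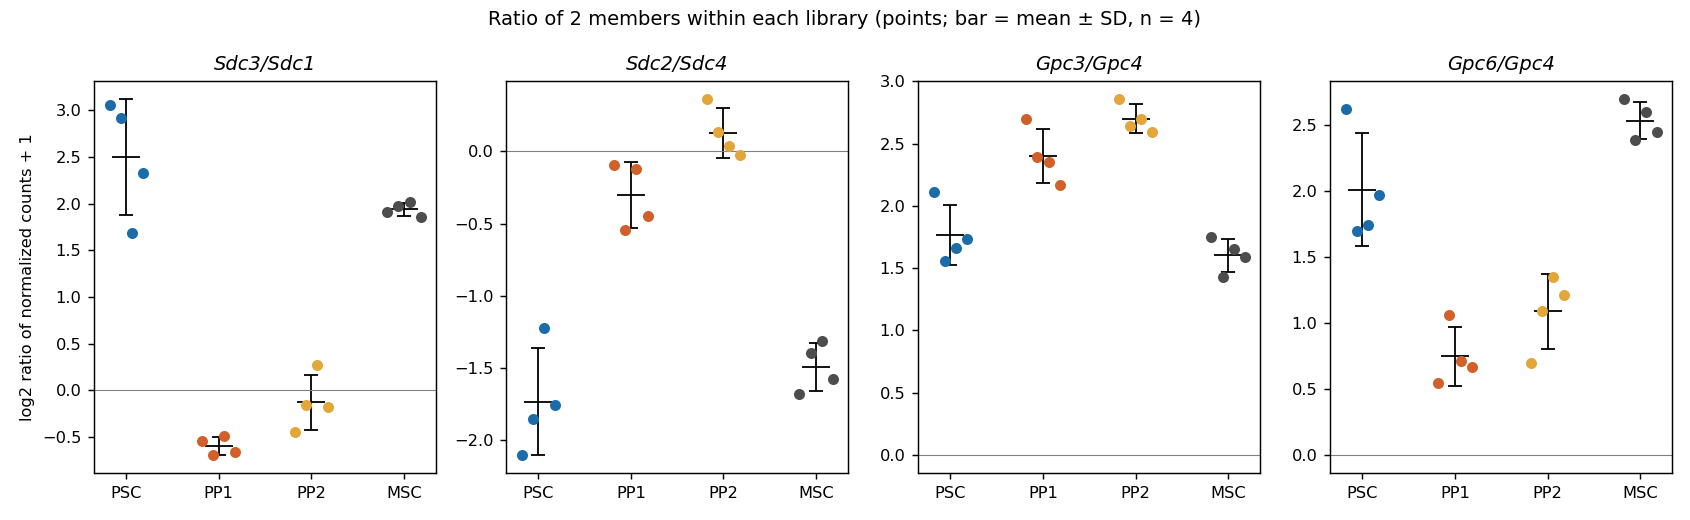
Log2 of the ratio of 2 members within each library (points), by group, with the mean ± SD of 4 libraries. A value of 0 marks equal normalized counts, not equal counts per kb. The Sdc3 to Sdc1 and Sdc2 to Sdc4 ratios of PP1 and PP2 do not overlap, and PSC and MSC lie together, away from both.

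The 250 bases before to 50 bases after the transcription start were available from RefSeq (GRCm38.p6) for 7 of the 10 members. The windows of the 2 syndecans high in PSC and MSC, and of Sdc1, Gpc3 and Gpc4, which were high in the progenitors, are shown on the strand of the gene, 5′ to 3′, to set the promoters of the opposite patterns side by side. Capitals mark GC boxes, searched as GGGCGG on both strands, so CCGCCC is the reverse strand match. They cover chr4:130792287-130792586 (Sdc3, plus strand), chr2:164443139-164443438 (Sdc4, minus), chr12:8771146-8771445 (Sdc1, plus), chrX:52613925-52614224 (Gpc3, minus) and chrX:52164874-52165173 (Gpc4, minus).
Sdc3: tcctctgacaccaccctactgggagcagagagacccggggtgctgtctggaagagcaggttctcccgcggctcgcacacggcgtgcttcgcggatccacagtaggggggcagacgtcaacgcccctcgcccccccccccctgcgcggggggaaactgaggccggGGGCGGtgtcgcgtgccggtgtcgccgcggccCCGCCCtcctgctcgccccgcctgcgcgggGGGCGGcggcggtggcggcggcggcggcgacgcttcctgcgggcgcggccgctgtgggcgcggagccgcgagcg
Sdc4: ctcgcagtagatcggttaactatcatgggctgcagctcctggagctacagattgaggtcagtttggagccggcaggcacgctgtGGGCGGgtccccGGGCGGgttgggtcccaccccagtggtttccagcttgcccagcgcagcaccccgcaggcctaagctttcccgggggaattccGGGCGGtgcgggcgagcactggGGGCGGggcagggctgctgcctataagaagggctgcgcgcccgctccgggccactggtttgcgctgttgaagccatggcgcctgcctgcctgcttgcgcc
Sdc1: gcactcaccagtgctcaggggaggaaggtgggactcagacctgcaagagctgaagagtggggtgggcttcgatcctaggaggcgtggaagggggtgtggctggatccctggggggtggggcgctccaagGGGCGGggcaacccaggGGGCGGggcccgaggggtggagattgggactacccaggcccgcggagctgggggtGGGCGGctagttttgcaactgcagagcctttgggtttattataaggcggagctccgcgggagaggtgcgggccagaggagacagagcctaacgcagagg
Gpc3: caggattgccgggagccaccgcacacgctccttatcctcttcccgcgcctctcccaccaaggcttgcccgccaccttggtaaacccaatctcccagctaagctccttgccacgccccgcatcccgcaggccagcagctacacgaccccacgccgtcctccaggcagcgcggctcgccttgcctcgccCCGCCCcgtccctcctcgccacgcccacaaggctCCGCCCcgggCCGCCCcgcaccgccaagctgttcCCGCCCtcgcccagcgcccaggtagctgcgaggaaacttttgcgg
Gpc4: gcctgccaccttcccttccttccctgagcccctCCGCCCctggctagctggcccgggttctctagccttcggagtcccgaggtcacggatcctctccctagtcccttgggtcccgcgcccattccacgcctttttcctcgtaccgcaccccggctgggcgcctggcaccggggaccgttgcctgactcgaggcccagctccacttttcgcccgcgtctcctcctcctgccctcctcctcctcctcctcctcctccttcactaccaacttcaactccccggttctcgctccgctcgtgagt
The window held 3 GC boxes in Sdc3, 4 in Sdc4, 3 in Sdc1, 4 in Gpc3 and 1 in Gpc4, and 35.7% of 32851 mouse windows held at least 1. TATAAA, found in 13.6% of windows, was in none of these 5, and ACAAT, a core of SOX factor sites found in 31.0% of windows, was in none of them. CANNTG, the E box, was in Sdc1 of the 5 and in 72.3% of all windows. The GC content of the 5 windows ran from 66.3% in Sdc1 to 77.7% in Sdc3, against a median of 52.7% over all windows.

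By gene model (GENCODE M21, GRCm38), the members lie at chr12:8771323-8793715 (Sdc1), chr15:32920723-33034935 (Sdc2), chr4:130792537-130826319 (Sdc3), chr2:164424247-164443887 (Sdc4), chr1:92831645-92860779 (Gpc1), chr5:138273655-138280005 (Gpc2), chrX:52272426-52613950 (Gpc3), chrX:52053021-52165252 (Gpc4), chr14:115092215-116525179 (Gpc5) and chr14:116925315-117976544 (Gpc6). The counts cover whole genes, so isoforms are not resolved.

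For each abundant member, the 3 genes with the most similar pattern over the 16 libraries were named. The measure was the highest Pearson r of log2(normalized count + 1) among 13118 tested genes, which does not compare levels. Of the genes named below, Dsp averaged 9.84 normalized counts in PP1 and 0 in PP2, and Elf3 9.95 and 0, so their r rests partly on values at the floor. The 16 points share libraries, groups and depth, so r is given as a description with no p. The closest were Ctsb (r = 0.977) to Sdc1, Igfbp3 (0.985) to Sdc2, Ctgf (0.981) to Sdc3 and Leprel1 (0.958) to Sdc4. Among glypicans they were Dsp (0.954) to Gpc1, AW551984 (0.986) to Gpc3, Dkk3 (0.961) to Gpc4 and Trim44 (0.946) to Gpc6. Next in line stood Pxdn and Lhfpl2 for Sdc1, Anpep and Sepp1 for Sdc2, Sort1 and Comp for Sdc3, and Ppp1r1b and Elf3 for Sdc4. For the glypicans these were Xylt1 and Col11a1 (Gpc1), Agtr2 and Qprt (Gpc3), Prkcdbp and Pcolce (Gpc4), and Col2a1 and Sox5 (Gpc6). Among the members themselves, Sdc2 and Sdc4 were the most opposed pair (r = -0.96), and Sdc2 and Gpc3 the most alike (r = 0.95).

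The enzymes and partners of the proteoglycans were read from a list of 59 genes, of which 53 were tested. In PSC against PP1, 8 were higher in PSC (15.1%, beside 16.1% of all tested genes) and 19 lower (35.8%, beside 15.1%). Against PP2, 10 were higher in PSC (18.9%, beside 17.6%) and 18 lower (34.0%, beside 15.2%). PSC against MSC gave 5 higher (9.43%, beside 12.1%) and 19 lower (35.8%, beside 14.2%), with a median log2 difference over the list of -0.47 beside -0.18 over all tested genes. PP1 was above PP2 for 2 genes (3.77%, beside 0.478%) and below it for 0. PP1 against MSC gave 3 higher (5.66%, beside 8.88%) and 9 lower (17.0%, beside 12.6%). PP2 against MSC gave 6 higher (11.3%, beside 9.28%) and 10 lower (18.9%, beside 14.7%), so these last counts lay near the share over all genes.

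Enzymes that start and extend the heparan sulfate chain went both ways, 4 of 11 higher and 2 lower in PSC against each progenitor group. Over all tested genes, 16.1% were higher in PSC against PP1 and 17.6% against PP2, and 15.1% and 15.2% were lower. The 2 lower of 11 thus lay near the share over all genes. Xylt1, which adds the first xylose, averaged 2567 ± 275 normalized counts in PSC and 3223 ± 351 in MSC, against 1198 ± 242 in PP1 and 737 ± 96.9 in PP2 (SD, n = 4). It was 3.49-fold higher in PSC than in PP2 (limma adjusted p = 1.49e-08) and 1.61-fold higher in PP1 than in PP2 (adjusted p = 0.0264). The latter call was lost in 6 of 27 alternatives, up to an adjusted p of 0.342 with only the 8 libraries compared. Fam20b, the xylose kinase, showed a 3.02-fold excess of PSC over PP1 (limma adjusted p = 4.45e-08) and a 1.48-fold excess over MSC (adjusted p = 0.00555), while Ext1, a chain polymerase, was 1.85-fold lower in PSC than in PP1 (limma adjusted p = 0.000234). Of 10 tested sulfotransferase and related genes, 4 were lower and 0 higher in PSC against each other group. Against MSC, 14.2% of all tested genes were lower and 12.1% higher in PSC. Among the lower genes was Ndst1, an N-deacetylase and N-sulfotransferase. It had 941 ± 325 normalized counts in PSC and 1662 ± 142 in MSC, against 1740 ± 282 in PP1 and 1575 ± 29.1 in PP2. Others in this count were fragile: Hs6st1 against PP1 was lost in 17 of 27 alternatives and Hs6st2 against MSC in 19.

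Of 14 genes listed for chain editing or core protein release, Notum among them, 6 were lower in PSC than in PP1 and 2 higher. Over all tested genes these shares were 15.1% and 16.1%, so the 2 higher lay near that share. Against PP2, 6 were lower and 4 higher in PSC, beside 15.2% and 17.6% of all genes. Against MSC 7 were lower and 0 higher, beside 14.2% and 12.1%. Sulf1 and Sulf2, which remove 6-O-sulfates outside the cell, were both lowest in PSC. Sulf1 averaged 209 ± 34.3 normalized counts in PSC and 604 ± 148 in MSC, against 1513 ± 175 in PP1 and 1372 ± 473 in PP2, and was 7.24-fold lower in PSC than in PP1 (limma adjusted p = 1.01e-08). Sulf2 averaged 1271 ± 228 in PSC and 5744 ± 995 in MSC, against 7187 ± 774 in PP1 and 6037 ± 1140 in PP2, and PSC fell short of MSC 4.52-fold (limma adjusted p = 2.83e-08). Their levels thus separated PSC from MSC, where Sdc2, Sdc3, Sdc4, Gpc3 and Gpc4 did not pass the test. Mmp14, a membrane protease that sheds syndecan-1, was 3.64-fold lower in PSC than in PP1 (limma adjusted p = 5.03e-09) and 2.60-fold lower than in MSC (adjusted p = 1.38e-06). Furin, of the proprotein convertase family that processes glypican-3, showed a 2.25-fold excess of PSC over PP1 (limma adjusted p = 4.63e-06) and a 2.36-fold excess of MSC over PP1 (adjusted p = 5.93e-06).

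Of 8 cytoplasmic partners of syndecans, Sdcbp, which encodes syntenin, was highest in PSC, at 16146 ± 2280 normalized counts against 8110 ± 1090 in MSC, 7588 ± 611 in PP1 and 7505 ± 488 in PP2. It was 2.12-fold higher than in PP1 (limma adjusted p = 3.55e-07) and 1.99-fold higher than in MSC (adjusted p = 4.33e-06). Cask, another PDZ partner, was 1.56-fold lower in PSC than in PP1 (limma adjusted p = 0.00253). Of the 10 other core proteins that can carry heparan sulfate, 0 were higher in PSC than in any other group, and 6, 5 and 6 were lower against PP1, PP2 and MSC. Over all tested genes, 16.1%, 17.6% and 12.1% were higher in PSC against PP1, PP2 and MSC, and 15.1%, 15.2% and 14.2% lower. Col18a1, the collagen XVIII gene, was 5.71-fold lower in PSC than in PP1 (limma adjusted p = 5.22e-10) and 6.95-fold lower than in MSC (adjusted p = 3.72e-09). It was also 1.77-fold higher in PP1 than in PP2 (limma adjusted p = 0.0119), a call lost in 2 of 27 alternatives (up to 0.126). Tgfbr3, betaglycan, was 4.56-fold lower in PSC than in PP1 (limma adjusted p = 3.27e-09) and 4.93-fold lower than in MSC (adjusted p = 2.05e-08).

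**Figure D5:**
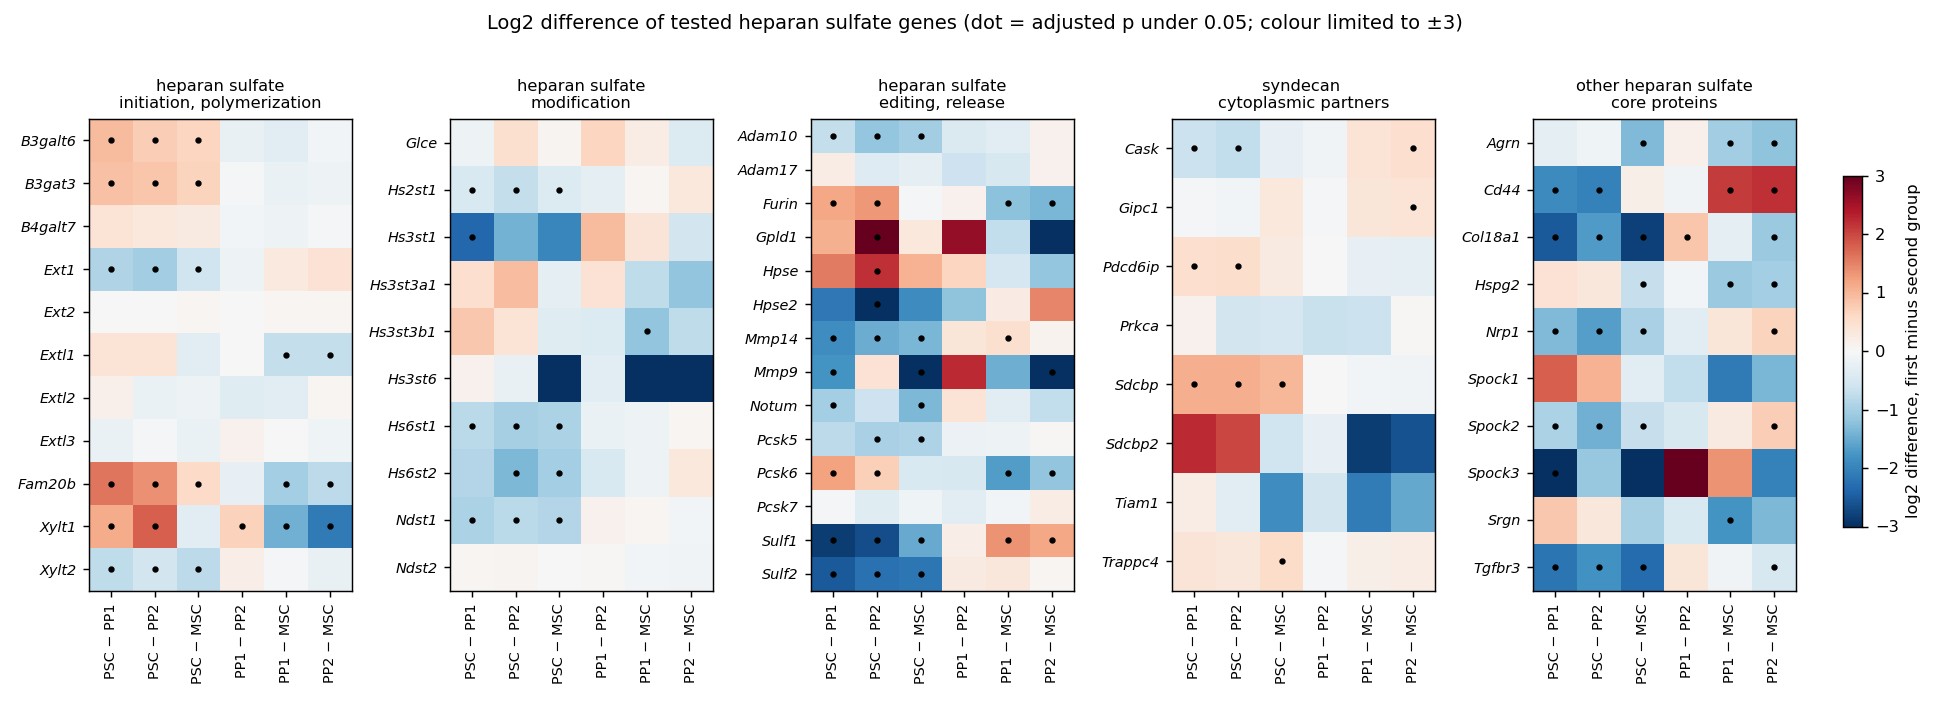
Log2 differences (colour, limited to ±3; first group minus second) of the 53 tested heparan sulfate genes in 5 lists, by comparison; dots mark an adjusted p under 0.05. Sulf1, Sulf2, Mmp14, Col18a1 and Tgfbr3 are blue in the 3 PSC columns, and 2 genes, Xylt1 and Col18a1, have a dot in the PP1 minus PP2 column.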

How the data were processed

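RNA from FACS-sorted femur cells was extracted with RNeasy Plus Micro, made into TruSeq RNA libraries and sequenced on a HiSeq4000, per the labels' protocols. The submitters' processing notes list DESeq2 1.6.3, HTSeq 0.6.1, TopHat2 2.0.11, cutadapt, bcl2fastq 2.17 and mm10, with no order. The sources used here name no strand setting or annotation. The deposited table holds signal values, which are reads per gene that the authors divided by a size factor for each library. All values were whole multiples of the smallest nonzero value of their library, within a tolerance of 1e-06 of whole (100% of values), so dividing by it gave reads, used for depth and for count tests. In PSC replicates 2 and 3 this step is within 1% of 1, so the check of the step is weaker there. Depth was 22.31 to 48.36 M reads. The spread between libraries limits group means, and counting error limits Gpc2 and Gpc5.

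log2(normalized count + 1) was fitted in limma 3.58.1 (R 4.3.3; mean trend on) over 16 libraries by group alone. Folds are 2 to the power of the log2 difference. For genes with few reads they depend on the pseudocount and can lie below or above the ratio of the group means. Alternatives were a pseudocount of 0.5 or 8, no filter, a filter of at least 50, TMM rescaling, edgeR 4.0.16 (TMM or RLE), DESeq2 1.42.0, a replicate block, only the 8 libraries compared, each library left out, and PP2 replicates 1 and 3 left out. The procedure was tested on simulated data. The members, the gene lists and the rules for naming genes (all members, the 3 genes most like each, up to 4 per list with the smallest adjusted p) were chosen with earlier results of these data known. Not every gene the rule gave is printed. Gene models came from GENCODE M21, which held 21829 of 22559 identifiers.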

Additional observations from a re-analysis of the deposited data

Results flagged for a closer look

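Of 58 sets of 4 libraries examined, each from 1 group, 5 had 1 library far from the other 3. The gap to the nearest of them was above Dixon's 95% critical share of the set's range. Chance flags about 1 in 20 such sets. The 58 sets outnumber the combinations of a member and a group, while all 5 flags were member values. The share flagged among members alone is therefore above 5 of 58. Sdc2 in PP1 replicate 1 was at 10244.4 normalized counts, above the other PP1 libraries. Sdc3 in PP1 replicate 3 was at 11052.7, also above the others. Gpc2 in PSC replicate 4 was at 12.7754, where the other PSC libraries had no read. Gpc3 in PP2 replicate 1 was at 30987.2, and Gpc4 in MSC replicate 3 at 2902.12, each the highest of its group.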

How the results depend on the processing

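Of 60 member tests, 38 were called. Of these, 33 were called in every alternative that could be run, 5 were lost in some, and 0 changed direction; the 5 are named with their results. Of the 22 not called, 3 passed in some alternatives. Gpc5 was not tested with a filter of at least 50. Same-numbered libraries of different groups had a median correlation of deviations of 0.033, from -0.018 to 0.149, with 2 of 24 above 0.1. Libraries with different numbers had a median of -0.015. The values thus show a weak link by replicate number, which the main fit left out. With the replicate block, the number of genes called between PP1 and PP2 was 227 in place of 115, and the members called stayed at 9, 8, 3, 0, 9 and 9. DESeq2 called 412 genes between PP1 and PP2, and a fit of only the 8 libraries called 28; leaving out 1 library gave 89 to 181. The cause was not tested. Leaving out 1 library gave 1 to 3 members between PSC and MSC, with 1 without MSC replicate 2. Of the ratio tests, 20 were called, 2 of them set by Gpc5 at 0 and others fixed by members that separated in opposite directions. With the replicate block 0 were called, as the smallest p is then 0.125. Without any 1 library 0 were called. The smallest p is then 0.0571 for pairs with the group of that library, and the other pairs lost their calls on adjustment. None of the 330 ratio alternatives changed direction. Some uncalled differences changed sign when 1 library was left out. For PSC against MSC, Gpc4 ran from -0.16 to 0.013 (turned without MSC replicate 3) and Gpc5 from -0.35 to 1.59 (-0.11, -0.046 and -0.35 without PSC replicate 1, 2 or 4). Gpc2 ran from -2.68 to 0.20 for PP1 against PP2 and from -1.80 to 0.027 for PP1 against MSC, in both turned without PP1 replicate 2. For PP2 against MSC it ran from -0.82 to 1.44, turned without PP2 replicate 1 (1.44) or MSC replicate 2 (0.21). There it was also at 0.35 with a pseudocount of 8, 0.89 and 0.88 with edgeR (TMM and RLE), 0.88 with DESeq2 and 1.52 without PP2 replicates 1 and 3. Depth limits Gpc2 and Gpc5, which had at most 148 and 48 reads in a library.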
